A study of Mus with 4 samples.

Results

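Transcript levels of imprinted fetal growth genes were measured in Six2+ nephron progenitor cells on embryonic day E15.5. The set comprises *Igf2*, *H19*, *Igf2r*, *Dlk1*, *Meg3*, *Cdkn1c*, *Peg3*, *Mest*, *Plagl1* and *Grb10*. Its members on the array are all non-control probes whose accession maps to one of these 10 symbols, which gave 12 probes for 8 genes, out of 41174 probes and 16358 named genes in all. *H19* and *Meg3* were not matched to a probe and were not analysed here. *Mut* cells carried Six2CreEGFP and PRR flox/flox, and *WT* cells carried the same Six2CreEGFP transgene and PRR+/+, so both genotypes hold the transgene that drives Cre in nephron progenitors. Cells were sorted by their GFP from dissociated embryonic kidneys, and each RNA sample was a pool of several kidneys. Arrays 1, 2 and 3 each paired a *Mut* pool (Cy3, green) with the equally numbered *WT* pool (Cy5, red). Array 4 carried no *Mut* RNA and compared *WT* pool 2 (Cy3) with *WT* pool 1 (Cy5).

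Imprinted genes are transcribed mainly from the copy inherited from 1 parent. Many of them act on prenatal growth: IGF2 is the main growth factor of the fetus, IGF2R binds it and delivers it to lysosomes, and GRB10 is an adaptor that dampens signalling by the insulin and IGF1 receptors. CDKN1C (p57Kip2) inhibits cyclin-dependent kinases and holds cells out of the cycle, PLAGL1 (ZAC1) and PEG3 are zinc finger proteins, DLK1 is a transmembrane protein of the Notch ligand family, and MEST is a hydrolase-like protein. Paternally expressed members are *Igf2*, *Dlk1*, *Peg3*, *Mest* and *Plagl1*, while *Igf2r* and *Cdkn1c* are maternally expressed, and *Grb10* is maternally expressed in most tissues.

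All 12 probes were well above background in all 8 channels, and no probe lacked a value on any array. Values are log2 ratios of Cy3 to Cy5 after normexp background correction and loess normalization, which is log2 *Mut*/*WT* on arrays 1 to 3, and levels of 1 channel are normalized log2 signals. A probe was called when limma gave a Benjamini-Hochberg adjusted P under 0.05 over all 41174 probes and the fold change exceeded 1.5. No array had the dyes swapped, and genotype and dye cannot be told apart on arrays 1 to 3, and *WT* pool 2 over *WT* pool 1 on array 4 gives the ratio with no difference of genotype. *Atp6ap2*, the gene of PRR, was at -0.08, -0.19 and -0.25 on arrays 1 to 3 and at -0.19 on array 4, which leaves the dye labels as the basis for the direction of every ratio. For some genes the *WT* pools of array 4 had signals near those of *Mut* on arrays 1 to 3, and whether a pool or an array was labelled wrongly was not tested. The values of arrays 1 to 3 do not use array 4, and those with a dye term do. Where on the transcript this probe binds was not determined. Between 45.1% and 58.3% of all probes were well above background in a channel, and 0 spots were saturated.

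*Cdkn1c*, *Peg3* and *Plagl1* were lower in *Mut* by 1.52-, 1.86- and 1.77-fold, each on all 3 arrays. Thus 3 of 12 probes, from 3 of 8 genes, were called, all of them lower, against 2.01% of all probes called in either direction, 1.46% called lower and 0.551% called higher. These shares include probes near background, while all 12 member probes were well above it. A fit was also limited to the 22009 probes well above background in *Mut* or *WT* on each of arrays 1 to 3. It called 826 of them (3.75%), 600 lower and 226 higher. *Igf2*, *Igf2r*, *Dlk1*, *Mest* and *Grb10* had no called probe. Over the 12 probes the median log2 *Mut*/*WT* was -0.17, and over all probes it was 0.00 (-0.0009). Without the fold minimum 8 of the 12 probes passed the adjusted P, 6 lower and 2 higher, where 29.6% of all probes passed it, 16.4% lower and 13.2% higher.

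**Figure D1:**
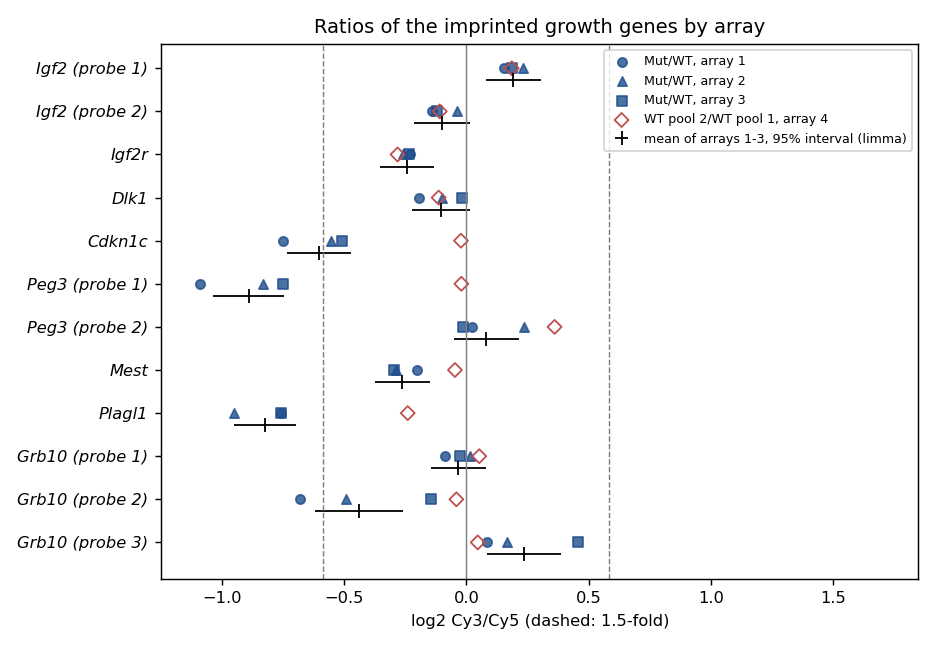
Log2 Cy3/Cy5 (x axis) of the 12 probes (rows; probes of a gene are numbered from the highest mean signal down). Filled symbols are *Mut*/*WT* on arrays 1, 2 and 3, open diamonds *WT* pool 2/*WT* pool 1 on array 4, and black bars the mean of arrays 1 to 3 with its 95% interval from limma. Dashed lines mark 1.5-fold: the means of *Cdkn1c*, *Peg3* probe 1 and *Plagl1* lie beyond the lower one, while the diamonds of *Igf2*, *Igf2r* and *Dlk1* lie within or close to the points of arrays 1 to 3.

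Among the genes that restrain growth, *Cdkn1c* had normalized log2 signals of 12.60, 12.78 and 12.83 in *Mut* pools 1, 2 and 3 and of 13.35, 13.34 and 13.34 in the *WT* pools of the same arrays. The *Mut* and *WT* channels did not overlap. Such a gap with *Mut* lower was also seen at *Igf2r* and *Dlk1*, whose ratios on array 4, without *Mut* RNA, were -0.28 and -0.11. With *Mut* higher it was seen at *Igf2* probe 1 and *Grb10* probe 3. *Mut* and *WT* always differed in dye on arrays 1 to 3, so a gap alone cannot tell genotype from dye. The share of all probes with such a gap was not computed. The log2 *Mut*/*WT* was -0.75, -0.55 and -0.51, with a mean of -0.60 (SE 0.059, n = 3, adjusted P = 3.36e-05, limma). On array 4 the ratio was -0.02. In the deposited median intensities, before any normalization, Cy5 exceeded Cy3 by 3.69-, 3.24- and 4.10-fold on arrays 1, 2 and 3 and by 1.73-fold on array 4. These intensities are not balanced for dye or array. At probe 1 of *Igf2*, which was not called, Cy5 over Cy3 was also smallest on array 4. Its Cy5 and Cy3 intensities were 17893.5 and 8655.5 on array 1 and 17938.8 and 11476.5 on array 4. Over the member probes Cy5 exceeded Cy3 by 1.21- to 1.93-fold on array 4.

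The normalized signal of *Cdkn1c* in *WT* was not the same on each array. On array 4 *WT* pool 1 had a signal of 12.87 and *WT* pool 2 of 12.85, which is above the highest *Mut* signal, but closer to it than to the *WT* signals of arrays 1 to 3. *WT* pool 1, labelled with Cy5 both times, was thus 0.48 lower on the log2 scale on array 4 than on array 1 (a difference of -0.48). Relative to *WT* pool 2 in the same dye, Cy3, the mean of the *Mut* pools was at -0.11. With a dye term for each probe taken from array 4 the log2 *Mut*/*WT* was -0.58 (adjusted P = 0.0437), just short of 1.5-fold, and without array 1 it was -0.53, so that in both cases *Cdkn1c* was not called.

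*Plagl1*, which encodes a transcription factor that arrests the cell cycle and regulates other imprinted genes, was the dimmest of the called probes. Its signals were 7.13, 6.98 and 7.30 in *Mut* and 7.90, 7.93 and 8.06 in *WT* on arrays 1, 2 and 3, again without overlap. The log2 *Mut*/*WT* was -0.76, -0.95 and -0.76, with a mean of -0.82 (SE 0.057, n = 3, adjusted P = 3.27e-06, limma). On array 4 it was -0.24, with signals of 7.68 in *WT* pool 1 and 7.44 in *WT* pool 2, both between those of *Mut* and *WT*. The dye term moved the mean to -0.58 (adjusted P = 0.0365), at which *Plagl1* was not called. In the deposited log ratios it was at -1.44 with an adjusted P of 0.0524, and was not called.

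*Peg3* is held by 2 probes, and they disagreed. Probe 1 (A_51_P206037) had signals of 9.52, 9.61 and 9.77 in *Mut* and of 10.61, 10.44 and 10.52 in *WT*, with no overlap between the groups. Its log2 *Mut*/*WT* was -1.09, -0.83 and -0.75, with a mean of -0.89 (SE 0.066, n = 3, adjusted P = 5.22e-06, limma), the largest difference among the 12 probes with this processing. Probe 2 (A_52_P235861) was at 0.02, 0.24 and -0.02, with a mean of 0.08 (SE 0.060, adjusted P = 0.337), and its 95% interval ran from -0.05 to 0.21. The ratio of probe 1 was lower than that of probe 2 on each array, by -1.12, -1.07 and -0.74. Which parts of the *Peg3* transcript the probes bind was not determined, so *Peg3* was lower at 1 of its 2 probes only. When a gene was given by the median over its probes, *Peg3* was at -0.41 and not called.

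Neither probe of *Peg3* was at the same *WT* level on each array. At probe 1 *WT* pool 1 had a signal of 9.89 and *WT* pool 2 of 9.87 on array 4, a ratio of -0.02, and *WT* pool 1 differed by -0.72 from its own signal on array 1. At probe 2 *WT* pool 1 was at 9.16 on array 4, and the ratio between the *WT* pools there was 0.36, larger than on any of arrays 1 to 3. With the dye term probe 1 stayed called, at -0.87 (adjusted P = 0.0105), and probe 2 turned to -0.28 (adjusted P = 0.312). The mean of the *Mut* pools at probe 1 was at -0.24 relative to *WT* pool 2 in the same dye, less than 1.5-fold lower.

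**Figure D2:**
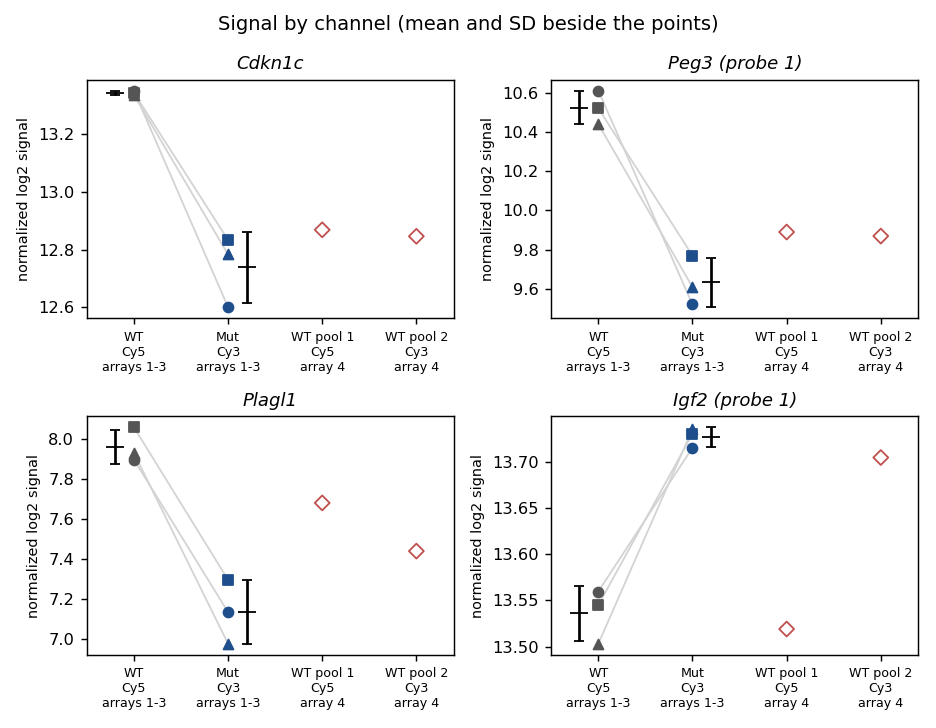
Normalized log2 signal (y axis) in each of the 8 channels for the called probes of *Cdkn1c*, *Peg3* and *Plagl1* and for probe 1 of *Igf2*. Circles, triangles and squares are arrays 1, 2 and 3, grey lines join the pools of an array, black marks give the mean and SD (n = 3), and open diamonds are the *WT* pools of array 4. For *Cdkn1c* and *Peg3* both diamonds lie near the *Mut* points. For *Igf2* each diamond lies near the points of its own dye.

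At 2 of the 3 called probes, those of *Cdkn1c* and *Peg3*, *WT* pool 1 gave on array 4 a signal that lay closer to the mean of the *Mut* pools than to that of the *WT* pools on arrays 1 to 3, as at 167 of all 600 probes called lower (27.8%). Markers of other cell types also differed between the channels. The log2 of the summed signals of 5 erythroid genes was between 11.72 and 11.80 in *Mut* and between 10.65 and 10.79 in *WT* on arrays 1 to 3. It was 11.93 and 11.75 in *WT* pools 1 and 2 on array 4. This sum mostly reflects its brightest gene, *Hba-a1*, which averaged 11.59 in *Mut* and 10.43 in *WT*. For 6 genes of differentiating nephrons the log2 of the sum was 11.43 to 11.52 in *Mut*, 10.93 to 11.01 in *WT* and 11.53 in both *WT* pools of array 4. For 8 stromal genes it was 12.70 to 12.98 in *Mut*, 12.45 to 12.52 in *WT*, and 12.50 and 12.69 in *WT* pools 1 and 2 of array 4. *Hba-a1* of the erythroid list, *Ccnd1* and *Lhx1* of the differentiating nephron list and *Col1a1*, *Col3a1* and *Pdgfrb* of the stromal list were called, all higher in *Mut*. Other stromal genes went the other way, short of 1.5-fold, with *Foxd1* at -0.30 and *Lum* at -0.42 on the log2 scale, and the erythroid gene *Hbb-bh1* was not well above background in either genotype. The part of these differences in the values of *Cdkn1c*, *Peg3* and *Plagl1* was not tested. In pooled cells, fewer cells of a type and less RNA per cell cannot be told apart.

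All 9 progenitor markers, among them *Six2* and *Cited1*, were well above background in *WT* on all 3 arrays. The log2 of their summed signals was 13.64 to 13.70 in *Mut* and 13.67 to 13.71 in *WT*. *Six2* itself was at -0.18 (adjusted P = 0.0404) and *Cited1* at -0.10. Of the 11 probes of this list 2 (18.2%) were called, both lower in *Mut* and neither the brighter probe of its gene: *Meox1* at -0.75, which stayed called with the dye term at -0.64, and *Osr1* at -0.66, which did not. The brighter probes were at -0.49 for *Meox1* and -0.35 for *Osr1*, *Eya1* was at 0.31, and *Pax2* was not well above background in any *Mut* pool. None of 6 ureteric bud genes and none of 5 endothelial genes was called. The ureteric bud gene *Ret* and the endothelial genes *Pecam1* and *Tek* were not well above background in either genotype. The ureteric bud genes *Calb1*, *Krt8* and *Wnt11* and the endothelial gene *Emcn*, however, were well above background in all 8 channels.

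The *Mut*/*WT* ratios of *Igf2* were similar in size to the ratio between 2 *WT* pools. Probe 1 (A_51_P516826) is spotted 10 times on each array, and its normalized log2 signal was 13.71, 13.73 and 13.73 in *Mut* against 13.56, 13.50 and 13.55 in *WT*. The log2 *Mut*/*WT* was 0.16, 0.23 and 0.19, with a mean of 0.19 (SE 0.051, 95% interval 0.08 to 0.30, adjusted P = 0.0157, limma). Between the *WT* pools of array 4 it was 0.19 as well. Over its spots within an array, of which 9 or 10 were used, the SD was 0.033 to 0.056, so the spots of an array agreed closely. Probe 2 (A_51_P516833) was at -0.14, -0.04 and -0.12, a mean of -0.10 (SE 0.052, 95% interval -0.22 to 0.01, adjusted P = 0.172), and at -0.11 on array 4. The difference between the probes was 0.29 on average over arrays 1 to 3 and 0.30 on array 4. With the dye term both probes were at 0.01.

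*Igf2r*, the receptor that clears IGF2, was at -0.23, -0.26 and -0.24 on arrays 1 to 3, a mean of -0.24 (SE 0.051, 95% interval -0.35 to -0.13, adjusted P = 0.00388, limma). Array 4 gave -0.28 with no difference of genotype. The dye term turned the mean to 0.04 (adjusted P = 0.904). *Dlk1* was at -0.19, -0.10 and -0.02, a mean of -0.10 (SE 0.055, 95% interval -0.22 to 0.02, adjusted P = 0.178), and at -0.11 on array 4. With the dye term it was at 0.01. For both genes the ratio on array 4 was thus as large as the mean of the *Mut*/*WT* arrays, and the intervals lay within 1.5-fold in both directions.

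*Mest* was lower on each array, at -0.20, -0.29 and -0.30, while the *WT* pools of array 4 were at -0.05. The mean was -0.26 (SE 0.052, 95% interval -0.38 to -0.15, adjusted P = 0.00292, limma), short of 1.5-fold. Its signal was 13.90, 13.74 and 13.67 in *Mut* and 14.10, 14.03 and 13.96 in *WT*. The channels of the genotypes did not overlap, as was also the case for *Igf2r* and *Dlk1*. In the *WT* pools of array 4, however, it was 13.76 and 13.72, within the range of *Mut*. With the dye term *Mest* was at -0.22 with an adjusted P of 0.373.

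*Grb10*, the adaptor that dampens insulin and IGF signalling, is held by 3 probes with 3 different results. Probe 1 (A_52_P115787) was at -0.09, 0.02 and -0.02, a mean of -0.03 (SE 0.052, 95% interval -0.15 to 0.08, adjusted P = 0.675, limma). Probe 2 (A_51_P187151) was lower, at -0.68, -0.49 and -0.15, a mean of -0.44 (SE 0.083, adjusted P = 0.00208). Probe 3 (A_52_P40363) was higher, at 0.09, 0.17 and 0.46, a mean of 0.24 (SE 0.069, adjusted P = 0.0237). Array 4 gave 0.05, -0.04 and 0.05 for probes 1, 2 and 3. Probes 2 and 3 had the largest SDs between arrays of the 12 probes, 0.27 and 0.20, and array 3 stood apart from arrays 1 and 2 at both. Without array 3 probe 2 was at -0.59 and was called. At probe 3 *WT* pool 1 was at 8.90 on array 4 and at 8.47 on array 1, so that this *WT* pool moved by more than the mean log2 *Mut*/*WT*. Which transcripts of *Grb10* the 3 probes bind was not determined.

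Imprinted genes lie in domains under a shared control region, so the neighbours of the members were examined. In the domain of *Cdkn1c*, *Kcnq1ot1*, the long non-coding RNA that is transcribed from the paternal copy and silences *Cdkn1c* and its neighbours there, was 2.02-fold higher in *Mut*. Its log2 *Mut*/*WT* was 1.06, 1.01 and 0.98, a mean of 1.02 (SE 0.052, n = 3, adjusted P = 3.61e-07, limma), against 0.09 on array 4, and with the dye term it was still called, at 0.93 (adjusted P = 0.00153). Its normalized log2 signal averaged 9.41 in *Mut* and 8.39 in *WT* on arrays 1 to 3, but it was 9.12 and 9.21 in *WT* pools 1 and 2 on array 4. None of the other 6 genes of the domain had a called probe: *Cd81* was at 0.01, *Kcnq1*, inside which *Kcnq1ot1* lies on the opposite strand, at 0.00 (-0.004) and *Tssc4* at -0.20. *Slc22a18* was at 0.07, while *Kcnq1*, *Phlda2* and *Ascl2* were not well above background in *Mut* on any array at their probe with the highest signal. *Cdkn1c* and *Kcnq1ot1* were thus the called genes of this domain, in opposite directions.

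Beside *Mest*, *Copg2*, which encodes a coatomer subunit and overlaps *Mest* transcripts from the opposite strand, was lower in *Mut* at 2 of its 3 probes. The log2 *Mut*/*WT* of these was -0.89, -0.73 and -0.97 for the first, with a mean of -0.86 (SE 0.058, adjusted P = 2.75e-06, limma), and -1.08, -0.88 and -1.005 for the second, with a mean of -0.99 (SE 0.056, adjusted P = 8.60e-07). Array 4 gave 0.14 and 0.01. The remaining probe was at -0.03 (adjusted P = 0.783). At the 2 called probes the signal of *WT* pool 1 on array 4, 8.47 and 8.41, was close to the *Mut* means of 8.45 and 8.28 and not to the *WT* means of 9.31 and 9.27. Beside *Peg3*, neither *Usp29* nor *Zim1* was called, and they were at 0.06 and -0.28, and *Zim1* was near background in *Mut*. In the domains of *Igf2*, *Igf2r*, *Dlk1* and *Grb10* no probe was called, but several neighbours could not be judged. *Th* of the *Igf2* domain and *Slc22a2* and *Slc22a3* of the *Igf2r* domain were not well above background in any channel. *Airn* of the *Igf2r* domain and *Rian*, *Mirg* and *Rtl1* of the *Dlk1* domain were not matched to a probe.

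**Figure D3:**
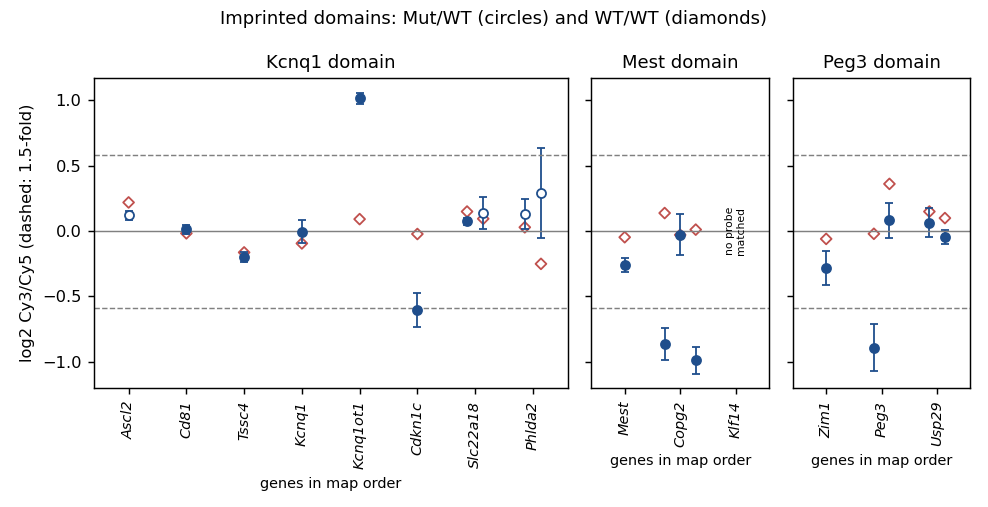
Log2 Cy3/Cy5 (y axis) of the genes of 3 imprinted domains, in their order on the chromosome (x axis). Circles are the mean *Mut*/*WT* of arrays 1 to 3 with the SD between arrays, filled where the probe was well above background on all 3 arrays in *Mut* or in *WT* and open otherwise. Diamonds are *WT* pool 2/*WT* pool 1 on array 4, and dashed lines mark 1.5-fold. *Kcnq1ot1* lies above and *Cdkn1c* below 0 in the same domain, and 2 probes of *Copg2* lie below *Mest*.

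Over 42 further imprinted genes with 69 probes, 6 probes (8.70%) were called, 4 lower and 2 higher, with a median log2 *Mut*/*WT* of -0.04. Of all probes 2.01% were called, and 3.75% in the fit limited to probes well above background. Of the 42 genes 29 were well above background in all 8 channels at their brightest probe. No test of the list as a whole was made. Apart from *Kcnq1ot1* and *Copg2* the called probes belonged to *Gnas*, *Ndn* and *Ppp1r9a*. *Gnas*, which encodes the stimulatory G protein alpha subunit and several imprinted transcripts, was at -1.58, -1.31 and -0.70 at 1 of its 4 probes, a mean of -1.20 (SE 0.121, adjusted P = 3.89e-05, limma), while the others lay between -0.03 and 0.18. None of these others was well above background in any *WT* channel, and only 1 of them was in 1 *Mut* channel. They therefore cannot show whether *Gnas* differed. *Ndn*, which encodes the growth suppressor necdin, was at -1.08, -0.79 and -0.33, a mean of -0.73 (SE 0.105, adjusted P = 0.000364), so both genes differed least on array 3. With the dye term neither *Gnas* (-0.96, adjusted P = 0.0936) nor *Ndn* (-0.55, adjusted P = 0.251) was called. *Ppp1r9a*, which encodes neurabin, was at 0.80, 0.68 and 0.65 at 1 of its 4 probes, a mean of 0.71 (SE 0.054, adjusted P = 6.52e-06), and remained called with the dye term at 0.74, but *WT* pool 1 on array 4 had the *Mut* signal, 9.44 against 9.51 in *Mut* and 8.80 in *WT*. Of its other probes, only the one at 0.06 was well above background in any *Mut* pool.

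Of the factors that set or keep imprints, *Dnmt1*, *Dnmt3a*, *Dnmt3l* and *Trim28* were matched, and 0 of their 6 probes were called. *Dnmt1*, the maintenance DNA methyltransferase, was at 0.43, 0.37 and 0.11, a mean of 0.30 (adjusted P = 0.00481, limma), short of 1.5-fold. It was at 0.06 on array 4, and with the dye term at 0.25 (adjusted P = 0.422). *Trim28* was at -0.04 (adjusted P = 0.627). *Dnmt3l* was not well above background in any channel. Among 17 genes of insulin-like growth factor signalling with 23 probes, which include *Igf1*, *Igf1r*, *Insr* and the IGF binding proteins, 0 probes were called, with 5 probes higher and 8 lower at the adjusted P alone and a median log2 *Mut*/*WT* of -0.05. Of these genes 4, *Insr* among them, were not well above background in any *Mut* pool. *Igfbp1*, *Igfbp3* and *Igfals* were not so in any *WT* pool either and cannot show whether they differed. *Igf1r*, the receptor through which IGF2 signals, was at 0.43, 0.53 and 0.31, a mean of 0.43, but at 0.39 on array 4.

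The signals of the called members varied alike over the 8 channels. These channels hold 6 pools, since *WT* pools 1 and 2 were each measured 2 times, and they share arrays and dyes, so correlations over them are a description. The called members were chosen for lower signals in *Mut* than in *WT*, and the *Mut*/*WT* arrays supply most of the channels. High correlations among the called members thus largely follow from that choice and are no separate result. *Cdkn1c* correlated with *Peg3* probe 1 at Pearson r = 0.987 and with *Plagl1* at 0.902, and *Peg3* with *Plagl1* at 0.935. Probe 1 of *Igf2*, high where the dye was Cy3, was at -0.77, -0.79 and -0.90 with the same genes, and probe 1 of *Grb10* at 0.28, 0.30 and 0.03. Out of 9340 other genes well above background in all 8 channels, the signals most like those of *Cdkn1c* were of *Eya2* (0.993) and *Arl6ip5* (0.991), and those most like *Peg3* of *Actn3* (0.998) and *Yap1* (0.996). For *Plagl1* they were *Tpm2* (0.994) and *Ctsz* (0.991). *Igf2* was closest to *Ppp1cc* (0.997) and *Ppp2r2d* (0.994), *Igf2r* to *1110059E24Rik* (0.992) and *Rdx* (0.988), and *Dlk1* to *Elovl1* (0.957) and *Elovl2* (0.940). *Mest* was closest to *Ypel5* (0.991) and *Tmem229b* (0.989), and *Grb10* to *Npr2* (0.985) and *Fdx1* (0.983).

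The values of the members depended on how the dyes were balanced. With each array centred on its median in place of loess, all 12 probes were lower in *Mut*, from -1.49 to -0.27 with a median of -0.80, while the median of all probes stayed at 0.01. The same probes were then also at -0.82 to -0.13 between the *WT* pools of array 4. When median centring and the dye term were combined, the median was -0.19, with *Cdkn1c* at -0.63, *Peg3* probe 1 at -0.94, *Plagl1* at -0.66 and *Igf2* probe 1 at -0.03. *Cdkn1c*, *Peg3* probe 1 and *Plagl1* were lower in *Mut* under each of these ways of processing, though median centring called 0 of all 41174 probes and so 0 of these.

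**Figure D4:**
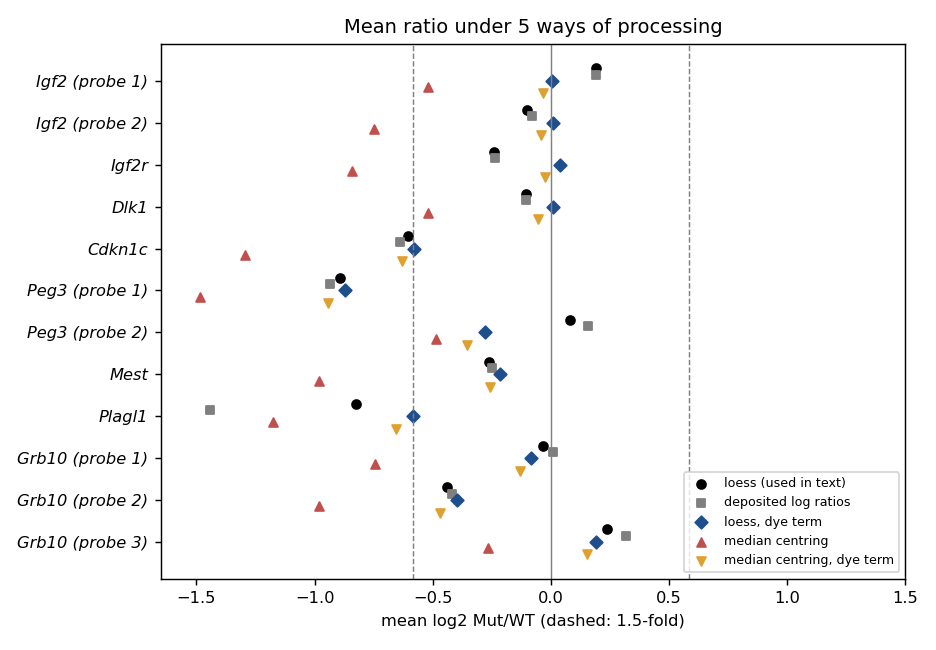
Mean log2 *Mut*/*WT* (x axis) of the 12 probes (rows) under 5 ways of processing. Black circles are the values used in the text, and dashed lines mark 1.5-fold. *Cdkn1c*, *Peg3* probe 1 and *Plagl1* lie below 0 under all 5, while *Igf2*, *Igf2r* and *Dlk1* lie near 0 with a dye term from array 4.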

How the data were processed

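Six2+ cells of 3 *Mut* and 3 *WT* pools were measured on 4 dual-colour Agilent arrays. These share 1 slide and 1 scan, which leaves no batch to test. The authors deposited scanner output of Agilent Feature Extraction 10.7.3.1: the intensity of each spot and its background on a linear scale, unnormalized, and the log10 ratio of red over green after that program's background subtraction and dye normalization. The deposited series table repeats these log10 ratios (180072 of 180072 values equal within 1e-06). The paper's GeneSpring values were not analysed here.

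The plan allowed median or mean intensities, and the median was used. Intensities were corrected by normexp (offset 50) and normalized by loess within arrays, and channel levels also by Aquantile, with limma 3.58.1 in R 4.3.3. Control spots and 122 to 162 outlier spots per array were left out, and spots of a probe were averaged. Ratios of arrays 1 to 3 were tested against 0 (lmFit and eBayes) with Benjamini-Hochberg adjustment over 41174 probes, and the fit was tested on simulated data. Nothing says that the pools came from separate litters, so P-values rest on the spread between pools, and precision is limited by the number of arrays. In limma the spread of a probe is moderated by that of all probes. The P-values of arrays 1 to 3 hold no uncertainty about the dye. For the 2 pools sharing an array, deviations from the group means correlated at 0.387, 0.429 and 0.319 over probes. Both channels of an array share its spots, so these values cannot show whether the pools themselves were matched. Symbols came from a GRCm38.p6 table matched by accession, for 22951 probes (55.7%); it was used for names and gene order only.

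The members and lists were chosen with earlier results of these data known. All member probes are named. From 50 other imprinted genes (42 matched), 7 imprint factors (4) and 18 insulin-like growth factor genes (17), those with a called probe were to be named, and *Dnmt1*, *Trim28*, *Igf1r* and the neighbours of members were named after their values were seen. A gene is given by its probe with the highest mean signal unless probes are named. Markers were of progenitors, differentiating nephrons, stroma, ureteric bud, endothelium, erythroid cells and macrophages; 0 of 5 macrophage probes were called. The result of 1 erythroid marker is not reported here, and it was left out of its list. Alternatives were the deposited ratios, offset 0, median centring, outlier spots kept, dim probes removed, a dye term from array 4, unpaired channels, leaving out each array, the methods' *t*-test, no adjustment, no fold minimum and the median over probes. Median centring together with the dye term was added after seeing the data.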

Additional observations from a re-analysis of the deposited data

How the results depend on the processing

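With the processing used in the text 3 member genes and 3 member probes were called. Both counts fell to 0 with normexp offset 0, with median centring, with median centring and the dye term together, and with the methods' *t*-test after Benjamini-Hochberg adjustment, settings that each called 0 of all 41174 probes. With the dye term 1 was left, *Peg3*, beside 0.777% of all probes (320). Without the fold minimum 6 genes and 8 probes passed, beside 29.6% of all probes. With the deposited ratios 2 genes and 2 probes were called, beside 6.57% of all probes. Leaving out 1 array gave 2 to 3 genes and 2 to 4 probes: without array 1 *Cdkn1c* was lost, and without array 3 probe 2 of *Grb10* was gained. The share of all probes called was 1.47% without array 1, 2.06% without array 2 and 2.93% without array 3. With unpaired channels (no replicate block) 3 genes and 3 probes were called, and no call changed. Directions turned for *Igf2* with median centring (-0.52) and with median centring and the dye term (-0.034), for *Igf2r* (0.039) and *Dlk1* (0.0094) with the dye term, and for *Grb10* with the deposited ratios (0.0080), under which *Plagl1* also lost its call. Over the 8 member genes and all alternatives other than the change of fold minimum or of adjustment in limma, 90 values kept direction and side of the thresholds, 17 kept the direction of a called gene without passing, and 5 turned; the cause was not tested. The dye term rests on 1 array, which holds its own pool difference, and with 3 arrays only differences well beyond the spread between pools can be called.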
